A study of Homo sapiens with 2 samples.

Results

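The IFIT genes (interferon-induced proteins with tetratricopeptide repeats) and the IFITM genes (interferon-induced transmembrane proteins) were examined in MRC-5 cells, a diploid fibroblast line from human fetal lung. They comprised 4 IFIT genes (IFIT1, IFIT2, IFIT3 and IFIT5) and 3 IFITM genes (IFITM1, IFITM2 and IFITM3), 7 of the 21743 genes that could be named on the array, and were found as every probe whose RefSeq accession belongs to any of them. These genes were picked with their ratio between the conditions already known, so their values are given as a description. The compared RNAs came from 1 culture treated with control siRNA and 1 culture treated with periostin siRNA (10 nM, 48 h), the latter silencing POSTN, the gene of the matricellular protein periostin. Both cultures were unmodified MRC-5 cells, the siRNAs were carried in with a lipid reagent, and each RNA was hybridized to 1 single-colour (Cy3) Agilent array. With 1 array per condition no test between them was possible, and the siRNA, the culture and the array cannot be told apart as sources of a difference.

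Interferons are secreted proteins, of which types I and III are released by cells that sense foreign nucleic acid. Types I and III signal through the kinases JAK1 and TYK2 to ISGF3, a complex that includes STAT2 and IRF9 and binds the interferon-stimulated response element (ISRE) in promoters. IFIT proteins are cytosolic and bind RNA: IFIT1 holds RNA whose cap lacks ribose methylation, IFIT2 prefers AU-rich RNA, IFIT3 binds IFIT1 and stabilizes it, and IFIT5 binds uncapped triphosphate ends. IFITM proteins sit in membranes and hinder the fusion of enveloped viruses, IFITM1 mainly at the cell surface and IFITM2 and IFITM3 mainly in endosomes. Human IFIT genes lie side by side on chromosome 10 and the IFITM genes named above on chromosome 11.

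The promoters are shown here because the members with a window shared a response element and differed in their ratio. The RefSeq promoter table (GRCh38.p14) held a window from 250 bases before to 50 after the start site for 5 of the 7 members, IFIT3 with 2 start sites, 6 windows in all. The ISRE core was searched on both strands as GAAA, any 2 bases and GAAA, which reads TTTC, 2 bases and TTTC on the opposite strand. The stretches below run from 160 bases before the start site to the base numbered 10 of the transcript, 5′ to 3′ on the strand of the gene, with each ISRE core in capitals. IFIT1, IFIT3 (its upstream start) and IFITM1 are members whose signal was more than 2-fold higher with periostin siRNA, IFIT5 and IFITM3 are members whose signal was not, and IFITM5 is a family gene described further on whose window holds no match.
IFIT1, chr10:89392463-89392632 (+ strand): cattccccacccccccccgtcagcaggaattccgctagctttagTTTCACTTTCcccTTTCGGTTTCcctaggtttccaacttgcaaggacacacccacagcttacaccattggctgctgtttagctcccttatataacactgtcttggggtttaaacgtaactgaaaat
IFIT3, chr10:89327837-89328006 (+ strand): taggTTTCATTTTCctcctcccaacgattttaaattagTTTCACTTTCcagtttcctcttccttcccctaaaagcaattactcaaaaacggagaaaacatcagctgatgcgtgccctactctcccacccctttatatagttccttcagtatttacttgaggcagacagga
IFIT5, chr10:89414408-89414577 (+ strand): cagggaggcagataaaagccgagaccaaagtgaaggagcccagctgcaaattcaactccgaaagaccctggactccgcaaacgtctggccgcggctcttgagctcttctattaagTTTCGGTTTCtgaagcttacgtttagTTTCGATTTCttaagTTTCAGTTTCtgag
IFITM1, chr11:313880-314049 (+ strand): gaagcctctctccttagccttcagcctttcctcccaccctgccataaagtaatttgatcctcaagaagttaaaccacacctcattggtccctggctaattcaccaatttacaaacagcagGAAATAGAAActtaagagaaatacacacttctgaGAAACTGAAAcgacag
IFITM3, chr11:320851-321020 (- strand): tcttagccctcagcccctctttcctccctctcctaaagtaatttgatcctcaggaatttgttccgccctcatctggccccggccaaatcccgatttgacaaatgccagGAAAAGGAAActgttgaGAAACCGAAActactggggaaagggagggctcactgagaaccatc
IFITM5, chr11:299517-299686 (- strand): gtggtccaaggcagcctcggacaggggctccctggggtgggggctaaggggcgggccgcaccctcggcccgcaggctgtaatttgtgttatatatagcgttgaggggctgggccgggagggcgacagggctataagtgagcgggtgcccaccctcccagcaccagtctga

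All 6 member windows held at least 2 ISRE cores, whereas 3.57% of the 35116 windows in the table held any. In IFIT1 the cores began 116 and 103 bases upstream of the start site. In IFIT3 they began 156 and 122 bases upstream of the first start and 94 and 51 bases upstream of the second. IFIT5 had 3 cores, beginning 45, 19 and 4 bases upstream, so that the last crosses the start site. IFITM1 had cores beginning 40 and 6 bases upstream, and IFITM3 had cores beginning 52 and 35 bases upstream. The gamma-activated site core TTCNNNGAA, which is its own reverse complement, was found in 1 member window, that of IFITM1, beginning 12 bases upstream and overlapping the ISRE core next to it, against 7.66% of all windows. The windows of IFIT1B and IFITM5 held neither core. A match of these letters is a description of the window and does not show binding.

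**Figure D1:**
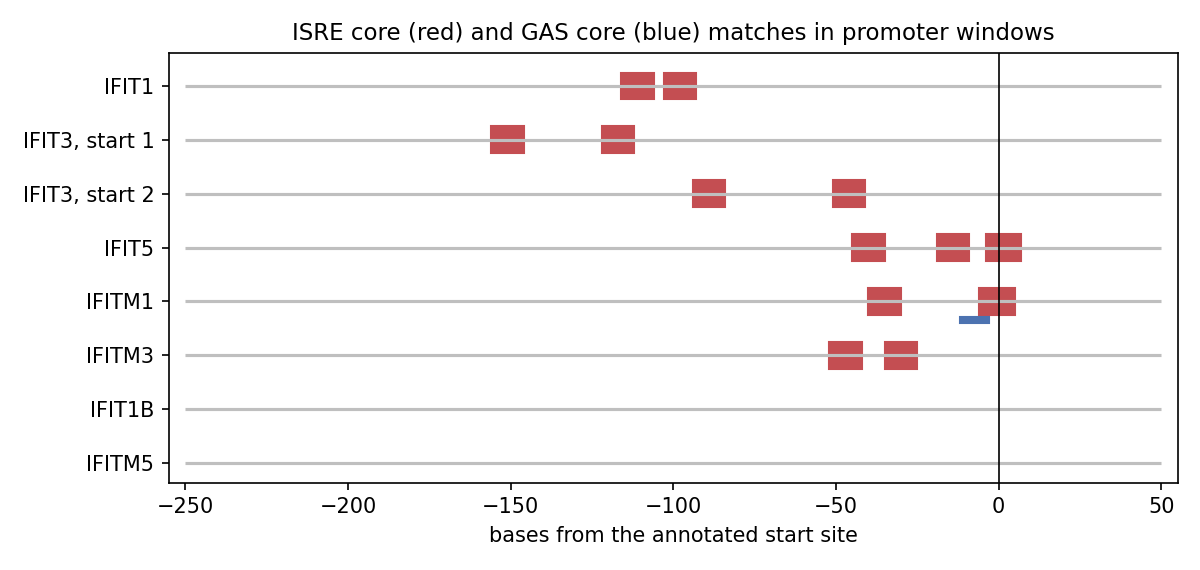
Positions of ISRE cores (red, GAAA, 2 bases and GAAA on either strand) and gamma-activated site cores (blue, TTCNNNGAA) in promoter windows, in bases from the annotated start site at 0; each grey line is 1 window of 300 bases. The 6 windows of members hold 2 or 3 ISRE cores each, and those of IFIT1B and IFITM5 hold none.

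The array signal was well above background for 58.0% of the 58717 spots with control siRNA and 58.9% with periostin siRNA, and no spot was saturated. Signals are given as intensities scaled to a common 75th percentile and compared only within a probe, log2 ratios are those of periostin siRNA over control siRNA, and a gene is represented by its brightest probe. POSTN went from 2638 in the control culture to 279.7 after periostin siRNA, a log2 ratio of -3.24. In such bulk RNA, fewer cells of a type and less RNA per cell cannot be told apart. The labelled cell type was checked by its markers, of which 10 of 10 fibroblast genes were well above background on both arrays, with a median log2 ratio of -0.10, ranging from -0.90 for PDGFRA, a growth factor receptor, to 0.83 for LUM, a collagen-binding proteoglycan. Of 12 immune cell markers 11 were on the array, and their signals summed over the list to 546.6 on the control array and 829.9 on the other, a difference that lay mostly in the CD14 probe (286.7 and 548.5). HLA-DRA, LAPTM5, S100A8 and MS4A1 were among those not well above background on either array. Ratios were obtained for 6, from -0.43 for CORO1A to 0.94 for CD14, PTPRC (17.6 and 25.1) and TYROBP (127.6 and 153.1) lying between. Of these 6, 0 passed 2-fold, where 7.97% of all genes were higher and 6.42% lower. CD74 (2.81 and 9.57) and CD3E (7.25 and 9.55) were not well above background with control siRNA. Their ratios are lower bounds, so the count cannot decide whether they passed 2-fold. Of 8 epithelial and endothelial markers the summed signal was 197.4 and 324.7, most of the difference lying in EPCAM. CDH1, KRT5, NKX2-1 and PECAM1 were not well above background on either array. EPCAM, which encodes an epithelial adhesion protein, went from 34.6 to 135.1, a log2 ratio of 1.97. SFTPC (0.66), VWF (0.15) and CDH5 (-0.09) were also well above background on both arrays. The part of these markers in the interferon-induced genes was not tested.

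All 7 members were well above background on both arrays, with 9 probes among them, 2 each for IFIT2 and IFITM1. Each probe was printed once, so the error is the one Feature Extraction propagates for a spot, 0.20 on the log2 ratio of every member. Among probes printed 10 times, the 100 of most similar brightness had an SD between spots of 0.05 to 0.07 for the probe representing each member and 0.18 for the dimmer IFIT2 probe. Neither error covers the difference between cultures.

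Of the IFIT genes, IFIT1, the sensor of unmethylated caps, went from a signal of 2850 (control siRNA) to 10812 (periostin siRNA). This was the largest ratio of the 7 members, 1.92 ± 0.20 on the log2 scale or 3.79-fold. Before any scaling, the median pixel of this spot lay 2732 above the local background on the control array and 10762 on the periostin siRNA array.

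IFIT3, which holds and stabilizes IFIT1, went from 643.5 (control) to 1803 (periostin siRNA), a log2 ratio of 1.49 ± 0.20 (2.80-fold). IFIT2, the AU-rich RNA binder, went from 572.8 to 1408 by its brighter probe, a log2 ratio of 1.30 ± 0.20 (2.46-fold). Its dimmer probe went from 54.7 to 127.2, a log2 ratio of 1.22 ± 0.21, so the 2 probes differed by 0.08 with a combined spot error of 0.29. Both probes of IFIT2 were thus higher after periostin siRNA by more than their spot error.

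IFIT5, the binder of triphosphate ends, stood apart from its neighbours in the cluster. Its signal went from 1251 (control) to 1086 (periostin siRNA), a log2 ratio of -0.20 ± 0.20. That equals the spot error (-0.33 under scaling on the median), and IFIT5 lay 2.13 below IFIT1 on the log2 scale, with a combined spot error of 0.29.

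Among the IFITM genes, IFITM1, the form at the cell surface, went from 5938 (control) to 15108 (periostin siRNA) by its brighter probe. The log2 ratio was 1.35 ± 0.20 (2.54-fold), and the second probe, at 2184 and 5322, gave 1.28 ± 0.20. Both probes therefore showed a higher signal with periostin siRNA, and they differed by 0.06 with a combined spot error of 0.29.

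IFITM2 and IFITM3, the endosomal forms, were bright on both arrays and differed little. IFITM2 went from 38817 to 35082, a log2 ratio of -0.15 ± 0.20 (-0.27 under scaling on the median). IFITM3 went from 51741 to 54045, a log2 ratio of 0.06 ± 0.20, whose sign turned under scaling on the median (-0.07). IFITM1 lay 1.49 above IFITM2 and 1.28 above IFITM3 on the log2 scale, each with a combined spot error of 0.29. The 3 IFITM genes are close in sequence, and whether their probes take up one another's RNA was not tested.

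**Figure D2:**
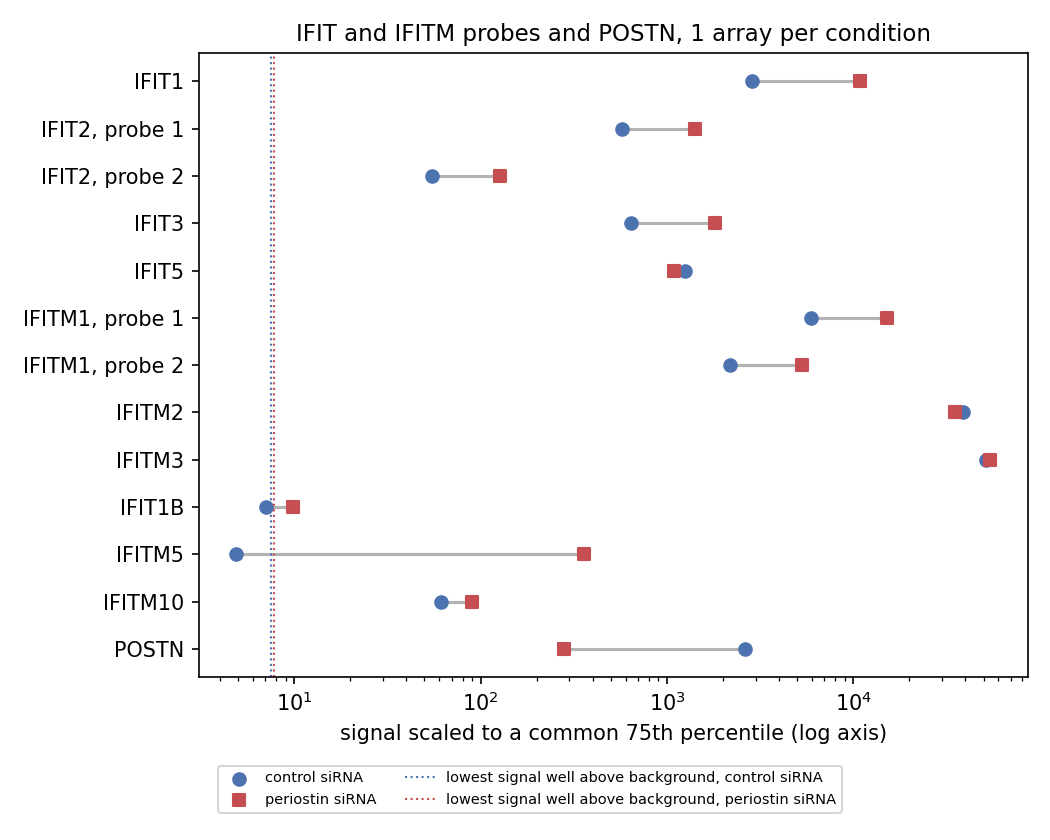
Signal of every probe of the IFIT and IFITM members, of 3 other family genes and of POSTN, scaled to a common 75th percentile on a log axis, with control siRNA as circles and periostin siRNA as squares (1 array each); dotted lines mark the lowest signal well above background on each array. IFIT1, IFIT2, IFIT3 and IFITM1 lie to the right with periostin siRNA, the points of IFIT5, IFITM2 and IFITM3 nearly coincide, and IFITM5 goes from under the dotted lines to 360.2.

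By ratio the members ran IFIT1, IFIT3, IFITM1, IFIT2, IFITM3, IFITM2 and IFIT5, from highest to lowest. IFIT1 lay above IFIT3 by 0.44 (combined spot error 0.29). IFIT3, IFITM1 and IFIT2 differed from one another by less than the combined spot error, as did IFITM3, IFITM2 and IFIT5. Between IFIT2 and IFITM3 lay a gap of 1.23. Past 2-fold higher were 4 of 7 members (IFIT1, IFIT2, IFIT3 and IFITM1), where 7.97% of the 16052 genes with a ratio were, and past 3-fold higher was 1 of 7 (IFIT1), where 3.37% of genes were. Past 4-fold higher were 0 members, where 1.73% of genes were. Past 2-fold lower were 0 members, against 6.42% of genes, and past 4-fold lower again 0, against 1.71%. Because the members were chosen on this contrast, nothing is read from these shares. The median log2 ratio was 1.30 over the members and 0.06 over all genes with a ratio. Of all those genes 321 had a ratio at least as high as that of IFIT1, and 65.3% at least as high as that of IFITM2.

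**Figure D3:**
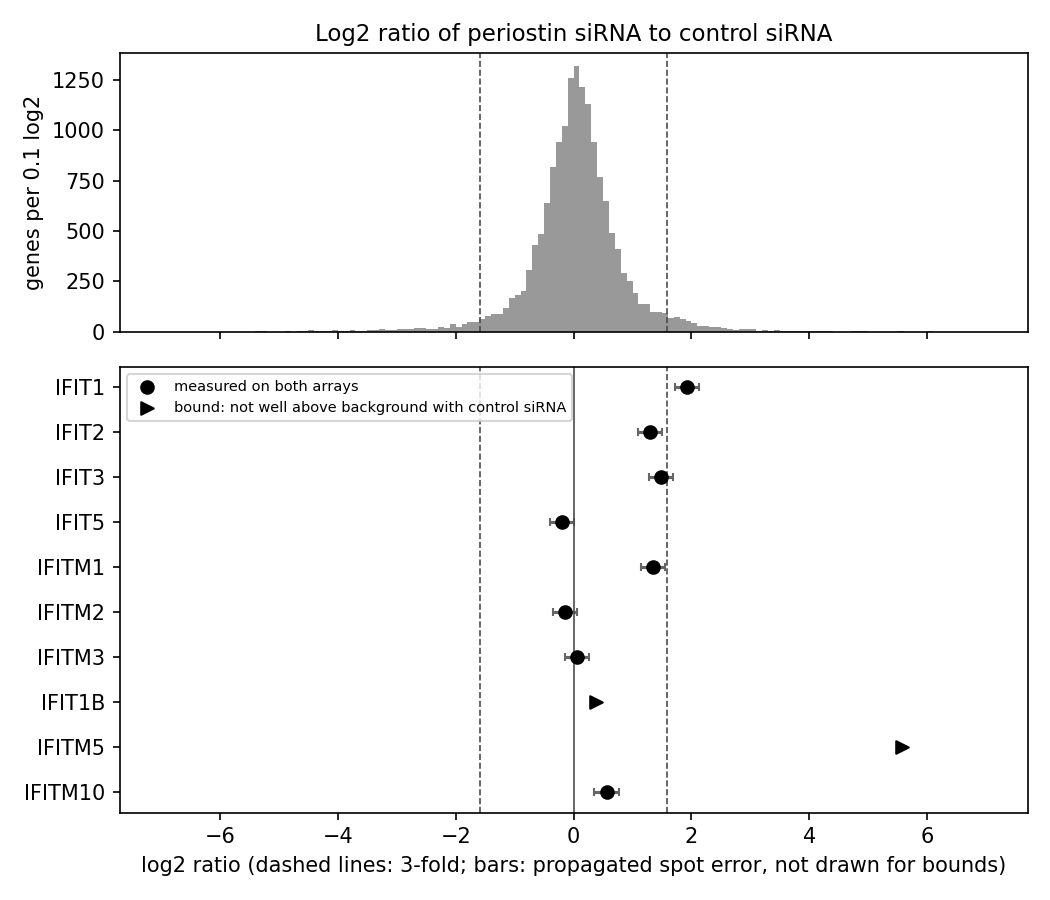
Upper panel, number of genes per 0.1 of log2 ratio (periostin siRNA over control siRNA) among 16052 genes; lower panel, log2 ratio of each member and of 3 other family genes by its brightest probe, bars being the propagated spot error and arrowheads lower bounds. Dashed lines mark 3-fold: IFIT1 at 1.92 is past it, IFIT3 at 1.49 is just short of it, and IFITM5 lies at 5.58 or more.

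Further genes of both families were read as well. IFIT1B, a relative of IFIT1 inside the same cluster, was not well above background with control siRNA (7.01) and barely so with periostin siRNA (9.81). IFITM10, a distant family gene, went from 61.2 to 90.3, a log2 ratio of 0.56 ± 0.21. IFITM5, known from bone-forming cells and not as an interferon-induced gene, went from 4.89, not well above background, in the control culture to 360.2 after periostin siRNA. It was at least 47.7-fold higher, and 3 of the 16052 genes, itself included, had a ratio as high. The median pixel of its only spot lay 12 above the local background on the control array and 403.5 on the periostin siRNA array, with no outlier flag on either. The normexp background correction, which adds 50 to all signals, left a log2 ratio of 2.82 (7.08-fold).

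The members were set beside genes that work with them, on lists chosen with earlier results of these data known. In 3 lists of interferon-induced effectors together, 27 of 29 genes were measured, 12 were higher by more than 3-fold and 0 were lower by more than 3-fold, against 3.37% and 2.75% of all genes, and the median log2 ratio was 1.38. The normexp correction lowered that median to 0.69. Of the OAS and MX genes, which answer double-stranded RNA and trap viral particles, OAS2 went from 27.5 to 389.4 (3.82), MX1 from 408.9 to 3425 (3.07) and OAS1 was at least 9.51-fold higher. Of ISG15, a ubiquitin-like modifier, and its enzymes, 1 of 6 was past 3-fold. This was HERC6, a relative of the ISG15 ligase, which went from a dim 12.4 to 39.9 (1.68). USP18, which removes ISG15, was the lowest at -0.28, and ISG15 itself went from 14309 to 21712 (0.60). Of the remaining effectors 8 of 14 were past 3-fold, the largest ratios being those of BST2 (4.91), which tethers budding virus, IFI44L (4.23), XAF1 (3.43), which promotes cell death, EPSTI1 (2.18, with 5 of its 10 spots well above background on the control array), RSAD2 (2.18), which makes a chain-terminating nucleotide, and IFI6 (2.03). SAMD9, at -0.15, was the lowest of these. Ratios within the interferon-induced lists thus ran from -0.28 to 4.91, wider than those of the 7 members, but over 27 genes. BST2 and IFI44L, at the top, had control signals of 10.8 and 17.0. The lowest control signal of a member by its brightest probe was 572.8, for IFIT2, so the spreads do not compare like with like.

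Genes that act upstream of the members were read in further lists. Of 8 genes of the receptor and ISGF3 list 0 were past 3-fold, against 3.37% higher and 2.75% lower of all genes. All 8 had a ratio above 0, as did 54.5% of all genes, and their median was 0.35. IRF9, the DNA-binding part of ISGF3, went from 839.8 to 2017 (1.26) and STAT2 from 13349 to 16872 (0.34). SOCS1, which dampens JAK signalling, was the highest at 1.58 (2.996-fold, just short of the threshold) and JAK1 the lowest at 0.10. Of 5 further trigger genes the median was 0.40 (0.017 with normexp), IRF7, which drives interferon genes, being the highest at 1.25 and IRF1 the lowest at -0.14. Of 9 measured RNA and DNA sensors 3 were past 3-fold higher and 0 lower, against 3.37% and 2.75% of all genes, with a median of 0.89. IFIH1, the sensor of long double-stranded RNA, went from 124.7 to 667.6 (2.42), TLR3, its endosomal counterpart, from 80.0 to 302.3 (1.92) and DHX58 from 540.6 to 1635 (1.6), whereas CGAS, a DNA sensor, went from 154.2 to 78.6 (-0.97). Of 9 interferon genes on the array 7, IFNB1 and IFNG among them, were not well above background on either array, IFNL2 gave 0.23, and IFNE, at 17.8 with periostin siRNA, was at least 2.36-fold higher.

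Genes of proteins that work with the members were read next, beside 7.97% higher and 6.42% lower past 2-fold over all genes. Of 6 genes that build or remove the RNA ends that IFIT1 and IFIT5 read, 0 passed 2-fold and the median was 0.01. CMTR1, which adds the ribose methylation that keeps IFIT1 off a cap, was the highest at 0.71 and RNGTT, the capping enzyme, the lowest at -0.25. Of 6 genes of eIF3, the translation initiation complex that IFIT1 and IFIT2 bind, 0 passed 2-fold, with ratios from -0.38 for EIF3A to 0.21 for EIF3H. Of 8 genes whose products modify IFITM proteins or share membranes with them, 0 passed 2-fold, from -0.68 for ZDHHC20, which attaches palmitate to IFITM3, to 0.54 for the tetraspanin CD9. Reference genes spanned -0.30 for HPRT1 to 0.44 for B2M, the light chain of MHC class I, with a median of 0.08.

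**Figure D4:**
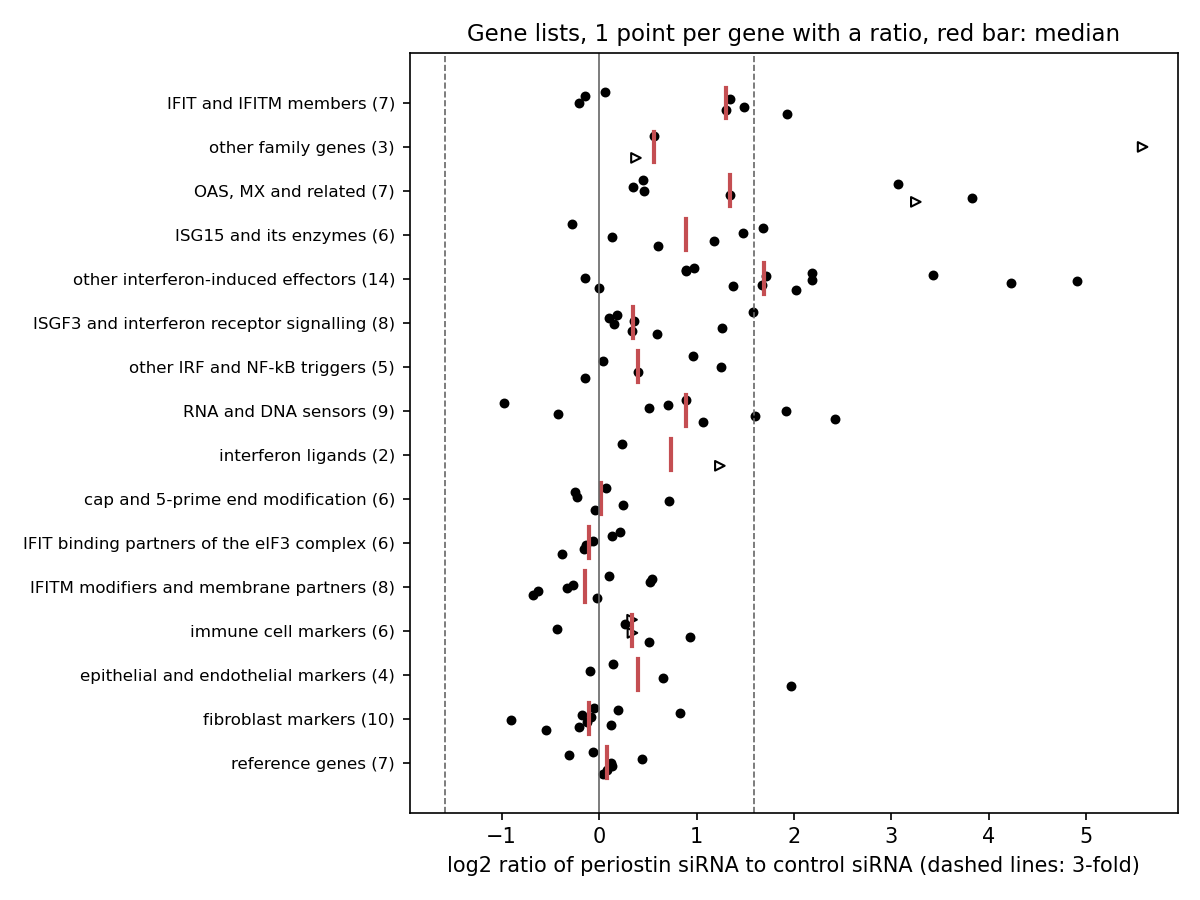
Log2 ratio (periostin siRNA over control siRNA) of each gene with a ratio, by list (number of genes in brackets); open arrowheads are bounds, red bars medians, dashed lines 3-fold. The interferon-induced lists reach 4.91, and the lists of cap, eIF3, IFITM partner, fibroblast and reference genes have medians between -0.14 and 0.08.

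Position was a property that the choice of members had not used. The 5 nearest protein-coding genes on each side of both clusters were read, 20 genes of which 18 gave a ratio (NLRP6 and ANO9 were not well above background on either array). Of these 0 passed 3-fold, against 3.37% higher and 2.75% lower of all genes. Past 2-fold 2 were higher and 3 were lower, against 7.97% and 6.42%, and the median log2 ratio was 0.07. Beside the IFIT cluster, LIPA, a lysosomal lipase next to IFIT2, went from 4695 to 4314 (-0.12). CH25H, which makes an antiviral oxysterol, went from 41.1 to 17.6 (-1.22), FAS, a death receptor, from 1713 to 3307 (0.95), ACTA2, smooth muscle actin, from 3172 to 6701 (1.08) and STAMBPL1, a deubiquitinase, from 575.2 to 209.4 (-1.46). On the other side, next to IFIT5, SLC16A12 went from 110544 to 101642 by the brightest of its 3 probes (-0.12). Whether that very bright probe reads other RNA was not tested. PANK1 gave 0.16, KIF20B -0.55, HTR7 -0.56 and RPP30 0.44. Beside the IFITM cluster, B4GALNT4, next to IFITM3, went from 23.9 to 9.88 (-1.28), SIRT3, a mitochondrial deacetylase, went from 868.9 to 1760 (1.02), and the other 6 with a ratio lay between -0.37 for PSMD13 and 0.34 for PGGHG. Within both clusters, genes past 2-fold higher thus lay next to genes that were not, IFIT1 beside IFIT5 and IFITM1 between IFITM2 and IFITM3.

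**Figure D5:**
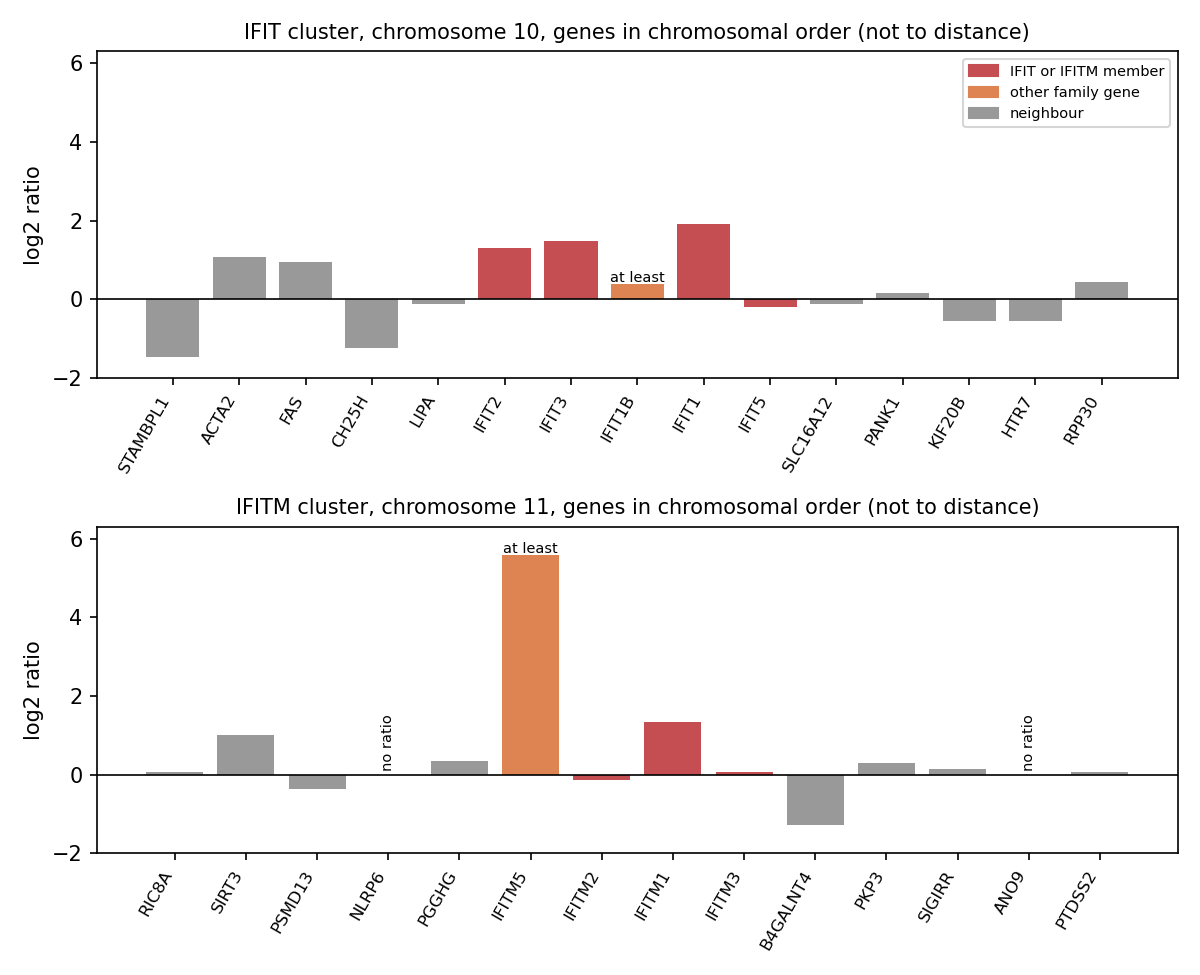
Log2 ratio (periostin siRNA over control siRNA) of the genes of both clusters and 5 protein-coding neighbours on each side, in chromosomal order and not to distance; bars are members (red), other family genes (orange) and neighbours (grey), "at least" marks a bound and "no ratio" a gene below background on both arrays. IFIT2, IFIT3, IFIT1, IFITM1 and IFITM5 stand above 1, as do the neighbours ACTA2 and SIRT3, and no neighbour is past 3-fold.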

How the data were processed

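Scanner files of 2 arrays were used, 1 per condition. The authors deposited intensity values made with Agilent Feature Extraction (11.5.1.1 in the file headers, 12.0.3.1 in the submitters' processing notes), which had been corrected for background and spatial trend but not scaled between arrays. A second deposited file holds normalized intensity; for the 49697 probes printed once it equalled the scanner values times 3.65 (control siRNA) or 3.54 (periostin siRNA). How it was normalized is not given in the sources used here. The array design was annotated on hg19, so no coordinates are given for probes, while promoter coordinates are those of GRCh38.p14.

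Here log2 signals were compared after subtracting the 75th percentile that each array had over its non-control spots (Python 3.11.15, numpy 2.4.6, pandas 2.3.3; limma 3.58.1 in R 4.3.3 for normexp and quantile normalization). The brightest probe stood for a gene. If that probe was detected (well above background) on a lone array, its dim signal was replaced by the lowest signal well above background there (7.55 or 7.77 after scaling) if that was higher, which gives a bound. The steps were tested on simulated data in which only bright genes changed. Detection was the same on both simulated arrays, so the rule for bounds was not tested. No test, set test or p-value was used, since there was 1 array per condition, which limits the precision. The members and lists were chosen with earlier results of these data known. Genes named are all members with every probe, POSTN, the neighbours, and in each list the genes past 3-fold (at most 6) with its highest and lowest gene; a few others (STAT2, IRF9, IFNB1, IFNG, IFNL2) were named after their values were seen. Alternatives were another background correction, scaling, source, probe rule, spot average, flag filter, signal filter and threshold. Protein comparisons were not analysed here, and some list genes counted above are not reported by name.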

Additional observations from a re-analysis of the deposited data

How the results depend on the processing

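The 7 members kept their ratios within the spot error under all 10 alternatives run for each, but some of these could not move a ratio. Their probes were printed once and carried no flag, so the median over spots and the flag filter changed nothing. Averaging the probes of a gene could change only IFIT2 and IFITM1. Changing or omitting the scaling, or using the deposited normalized file, could only shift all 7 by the same amount. IFIT1 ranged from 1.80 to 1.97 on the log2 scale, IFIT3 from 1.36 to 1.53, IFIT2 from 1.17 to 1.34, IFITM1 from 1.22 to 1.41, IFIT5 from -0.33 to -0.09, IFITM2 from -0.27 to -0.10 and IFITM3 from -0.07 to 0.11. Scaling on the median gave the lowest value of all 7 and shifted the median of all genes by -0.13, with 453 higher and 525 lower genes (46.3% higher). At 2-fold 4 members, 1279 higher and 1031 lower genes were counted, and at 4-fold 0 members, 278 higher and 274 lower genes, by construction. The normexp correction, whose offset of 50 draws dim probes towards 0, gave 143 higher and 190 lower genes (42.9% higher against 55.1% as reported), -2.99 for POSTN, 0.69 for the effector lists, 0.017 for the list with IRF7 (0.40 as reported), 2.82 for IFITM5 and 0.33 for IFITM10. Plain subtraction of the background from the median pixel, added after seeing the data, gave 0.020 for the list with IRF7. Of 258 recomputed values, the other 244 stayed within the spot error or within 1.5 times the count. No paired analysis was possible because there was 1 array a condition, and no replicate could be left out. Control signals near background limit the ratios of dim genes, among them IFIT1B, IFITM5, OAS1, IFNE, EPSTI1, BST2, RSAD2 and HERC6.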

Other observations

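Across genes of the whole array, the ISRE core (GAAA, any 2 bases and GAAA) was found in the promoter windows of 29 of 407 genes higher by more than 3-fold with periostin siRNA (7.13%), of 10 of 321 genes lower by more than 3-fold (3.12%) and of 473 of 11679 genes within 3-fold (4.05%), counting genes with a window in the table. In the interferon-induced effector lists 14 of 22 genes with a window held it. Most genes past 3-fold higher thus lacked these letters in their window. These are shares of genes of 1 pair of arrays, given without a test.

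A probe for a long non-coding RNA that the array names lnc-IFITM2-1, after its neighbouring gene, went from 15.4 (control) to 20.03 (periostin siRNA), a log2 ratio of 0.38, well above background on both arrays.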
